A study of Mus musculus with 7 samples.

Results

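Expression of p53 and of 9 genes tied to it was compared between aged and young splenic CD4+CD25+ cells, which the study used as regulatory T cells (Tregs). The 10 genes were chosen by symbol: Trp53, which encodes p53, its inhibitors Mdm2 and Mdm4, and genes listed as p53 targets. The listed targets were Trp53inp1, Sesn1, Sesn2, Sesn3, Ccng1, Phlda3 and Zmat3. The count files hold 47729 genes, and all 10 were among the 13904 genes with enough reads to be tested. The aged group held 3 libraries from WT (wild-type) mice of 18 months, and the young group held 4 libraries from WT mice labelled as 8 weeks old. The study's methods describe male C57BL/6 mice, a slightly older age for young mice, and a commercial isolation kit for the splenic Tregs it transfused. The labels call the libraries biological replicates and do not say whether 1 library is 1 mouse. The labels name no surgery or treatment for these mice, and CD25 is also carried by activated conventional T cells.

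p53 is a transcription factor that is kept scarce in resting cells by MDM2, a ubiquitin ligase that sends it to the proteasome, and by MDM4, which masks its activation domain. DNA damage and other stress loosen this grip, and p53 then switches on genes for cell cycle arrest, repair, death and metabolism, Mdm2 among them. The sestrins are stress proteins, and sestrin 1 and sestrin 2 restrain the growth kinase complex mTORC1. Much of p53's control acts on the protein, which RNA counts do not measure. In Tregs, p53 has been linked to induction of Foxp3 and mTORC1 to the balance of suppression and growth.

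Gene counts per library were 10734234 to 13649310, and the aged libraries were all smaller than the young ones. Counts are given as CPM (counts scaled to a common library size by edgeR's TMM factors), where 3 counts correspond to 0.21 to 0.302 CPM. These limits cover counting error only. All 7 libraries held the defining transcripts of Tregs, Foxp3 (447 to 622 CPM in aged, 394 to 518 CPM in young), Cd4 (434 to 446 and 493 to 633 CPM) and Il2ra, which encodes CD25 (327 to 481 and 471 to 684 CPM). Cd4 was lower in every aged library (log2 fold change -0.30, edgeR adjusted p = 0.117; called by DESeq2 alone among the 17 alternatives). Il2ra was at -0.61 (edgeR adjusted p = 0.0588), and 5 of the 17 alternatives called it. Foxp3 was at 0.21 (edgeR adjusted p = 0.409). Mitochondrial genes took 5.08% to 10.7% of counts in aged and 2.63% to 3.23% in young libraries, and haemoglobin genes took 1.24% to 13.1% over all libraries. In bulk RNA, fewer cells of a type and less RNA per cell cannot be told apart.

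The starts of 8 of the 10 genes were matched by symbol to 10 promoter windows of RefSeq (GRCm38.p6), each from 250 bases before to 50 bases after a transcript's start. They were searched on both strands for the p53 decamer, the unit that p53 binds as a pair, and for the FoxO motif TGTTTAC. The decamer was found in 4 of 10 windows, 1 each of Trp53, Mdm2, Ccng1 and Sesn1, against 8.36% of all 32851 windows. A pair of decamers at most 13 bases apart was found in 0 of 10 windows, and in 0.0731% of all windows. Sequence outside these windows, such as the rest of the introns, was not searched. The 250 bases before the start are shown for the 3 targets with a decamer, which include the target that changed with age (Sesn1) and the target that feeds back on p53 (Mdm2). Capitals mark the decamer and, in Mdm2 alone, the FoxO motif read on the opposite strand.
Sesn1 (second start, chr10:41887189-41887438, + strand): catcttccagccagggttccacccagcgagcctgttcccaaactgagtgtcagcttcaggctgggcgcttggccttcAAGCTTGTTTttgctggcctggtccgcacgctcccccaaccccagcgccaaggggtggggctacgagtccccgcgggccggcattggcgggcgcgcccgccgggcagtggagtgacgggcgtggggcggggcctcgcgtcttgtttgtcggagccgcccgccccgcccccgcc
Mdm2 (chr10:117710759-117711008, - strand): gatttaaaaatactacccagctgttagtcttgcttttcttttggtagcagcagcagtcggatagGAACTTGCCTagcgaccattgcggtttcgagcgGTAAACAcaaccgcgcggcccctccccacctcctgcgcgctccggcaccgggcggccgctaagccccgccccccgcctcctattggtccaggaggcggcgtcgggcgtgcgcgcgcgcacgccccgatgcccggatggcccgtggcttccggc
Ccng1 (chr11:40755287-40755536, - strand): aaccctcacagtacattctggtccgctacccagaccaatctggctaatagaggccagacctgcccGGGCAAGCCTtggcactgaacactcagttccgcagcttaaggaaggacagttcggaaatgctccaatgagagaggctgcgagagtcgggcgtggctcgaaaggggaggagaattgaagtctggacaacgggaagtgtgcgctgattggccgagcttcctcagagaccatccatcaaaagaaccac
Counted from +1 at the start, the decamer began at -173 in Sesn1, at -186 in Mdm2 and at -185 in Ccng1. The window of Trp53 held GGACTTGCCC at -75. The Sesn1 sequence lies within an intron of the longer Sesn1 transcripts in GENCODE M21, and the Mdm2 sequence lies outside the gene. The window of the first Sesn1 start held TGTTTAC at +23, in exonic sequence. The FoxO motif was present in 3.65% of all windows. A match describes these letters and was not tested as a binding site.

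Of the 10 genes, 1 was called in aged Tregs at an adjusted p under 0.05 (edgeR quasi-likelihood test, Benjamini-Hochberg), namely Sesn1, which was lower. That is 10% of the 10 genes, beside 16.7% of all genes tested (6.94% in the lower and 9.8% in the higher direction). The aged and young libraries did not overlap in 5 of the 10 genes, beside 29.9% of all genes. The median log2 fold change (aged over young) of the 10 genes was 0.07, and that of all genes was 0.02. The plot of values by library shows the 10 genes side by side.

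**Figure D1:**
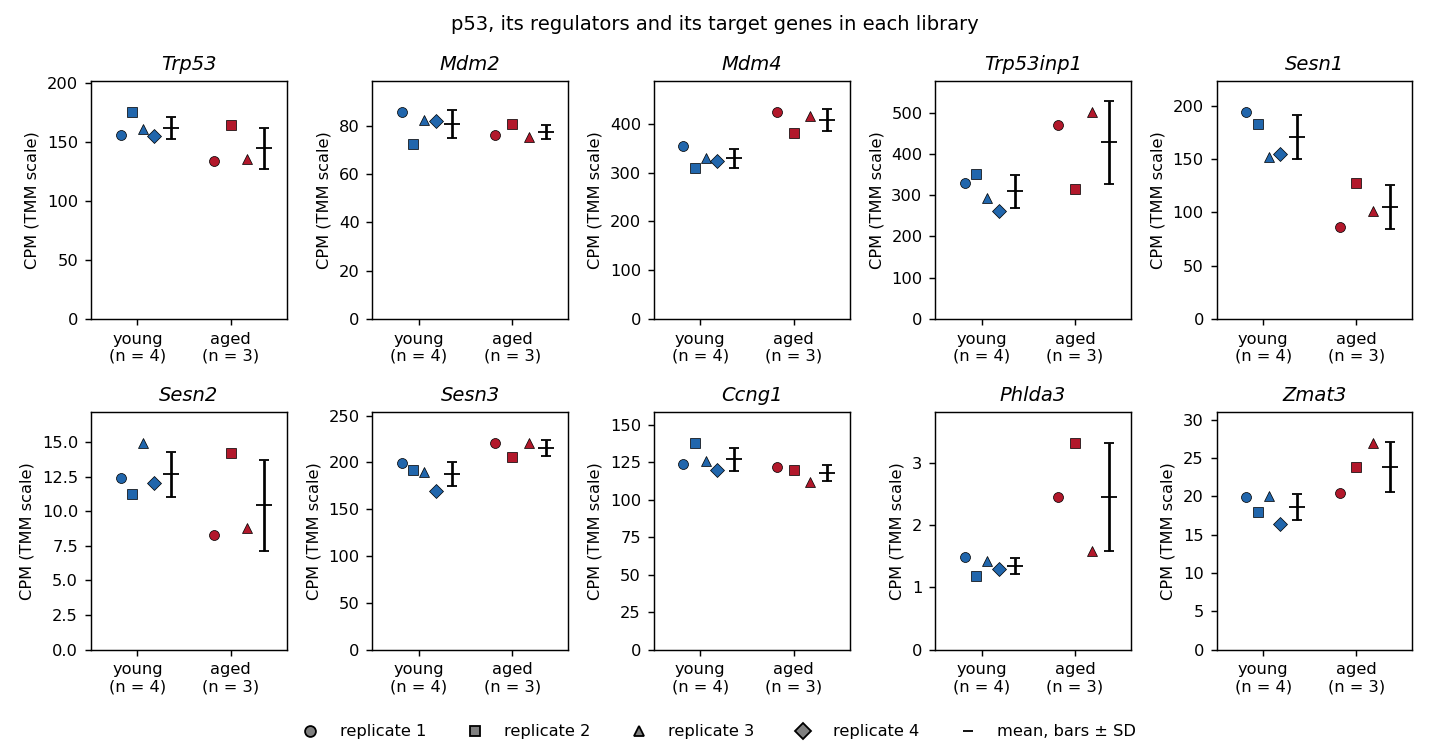
CPM (TMM scale, linear axis from 0) of each gene in each library, with young libraries in blue and aged libraries in red. Marker shape gives the replicate number, which was not used to pair libraries in the main fit. Bars give mean ± SD. Sesn1 is lower in every aged library than in every young one, Mdm4, Sesn3, Phlda3 and Zmat3 are higher in every aged library, and the other 5 genes overlap.

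Trp53 overlapped between the ages. It stood at 134, 164 and 135 CPM in aged libraries 1 to 3, and at 155, 175, 161 and 155 CPM in young libraries 1 to 4. Aged replicate 2 lay within the young values and the other two aged libraries lay below them. Mean levels (± SD) were 144 ± 17.1 CPM over the 3 aged and 161 ± 9.50 CPM over the 4 young libraries. Aged over young, this is a log2 fold change of -0.16 (SE 0.107, 95% interval -0.41 to 0.08, edgeR adjusted p = 0.335). The gene (ENSMUSG00000059552) spans chr11:69580359-69591873 on the + strand of GRCm38. Its processed pseudogene Trp53-ps had 0 counts in all libraries.

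Mdm2, the ligase that p53 itself switches on, did not separate the ages. Aged libraries had 76.2, 80.9 and 75.2 CPM, and young libraries had 85.7, 72.6, 82.6 and 82.2 CPM. All aged values lay inside the young range. The log2 fold change of Mdm2 (ENSMUSG00000020184, chr10:117688875-117710758, - strand) was -0.06 (SE 0.0889, 95% interval -0.26 to 0.14, edgeR adjusted p = 0.679). Neither Trp53 nor Mdm2 was called under any of 17 alternative settings.

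Mdm4, the second inhibitor, had its 3 aged values above its 4 young values. These were 424, 382 and 416 CPM in aged libraries and 355, 309, 330 and 323 CPM in young libraries. The lowest aged library exceeded the highest young one by a small margin. Mean levels (± SD) were 407 ± 22.3 CPM over the 3 aged and 329 ± 19.4 CPM over the 4 young libraries, with a log2 fold change of 0.31 (SE 0.101, 95% interval 0.08 to 0.54), and edgeR's adjusted p of 0.0713 did not pass the threshold. Mdm4 (ENSMUSG00000054387, chr1:132959484-133030561, - strand) passed it with DESeq2 (adjusted p = 0.049), with limma voom (0.0472) and with GC and length trends removed (0.0201), and over all alternatives its adjusted p was 0.0201 to 0.262.

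The 2 inhibitors were also compared within each library, where the library's scaling cancels. The log2 ratio of Mdm2 over Mdm4 counts was -2.48, -2.24 and -2.47 in aged libraries and -2.05, -2.09, -2.0 and -1.97 in young libraries. Every aged library had less Mdm2 per Mdm4 than every young one, by 0.37 on the log2 scale on average. With 3 against 4 libraries an exact two-sided permutation test cannot give a p under 0.0571, and this ratio gave 0.0571 (0.143 after Benjamini-Hochberg adjustment over the 5 ratios computed). The log2 ratio of Mdm2 over Trp53 was -0.81, -1.02 and -0.85 in aged and -0.86, -1.27, -0.96 and -0.91 in young libraries, which overlapped (difference 0.11, exact permutation p = 0.457).

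The 3 sestrins took different courses. Sesn1 fell with age, Sesn3 had higher values in all aged libraries without passing the test, and Sesn2 overlapped between the ages. Sestrin 2 binds GATOR2, the complex that keeps mTORC1 on when leucine is plentiful. Sesn1 and Sesn3 are also known targets of the FoxO transcription factors, and Sesn2 is a target of the stress factor ATF4.

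Sesn1 stood at 86.0, 127 and 101 CPM in aged libraries 1 to 3 and at 194, 183, 152 and 155 CPM in young libraries 1 to 4. The raw counts behind these were 984, 1262 and 1079 in aged and 2219, 2605, 1923 and 2159 in young libraries. All aged libraries were below all young libraries, with aged replicate 2 nearest to the young group. Mean levels (± SD) were 105 ± 20.8 CPM over the 3 aged and 171 ± 20.7 CPM over the 4 young libraries, so that aged Tregs held 0.613 times the young level by the fit. By edgeR, the log2 fold change of Sesn1 (ENSMUSG00000038332, chr10:41809935-41908424, + strand) was -0.71 (SE 0.155, 95% interval -1.06 to -0.35, edgeR adjusted p = 0.0189). The direction held in all 17 alternatives, from -0.87 to -0.59. Sesn1 was called in 14 of the 17. With 1 library left out, the call did not hold without aged replicate 3 (-0.68, adjusted p = 0.0713) or without young replicate 1 (-0.64, adjusted p = 0.0517).

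Sesn3 had 221, 206 and 221 CPM in aged libraries and 200, 192, 190 and 169 CPM in young libraries. The aged values lay just above the young ones, with no overlap. Mean levels (± SD) were 216 ± 8.69 CPM over the 3 aged and 188 ± 13 CPM over the 4 young libraries. Sesn3 (ENSMUSG00000032009, chr9:14275067-14333101, + strand) thus had a log2 fold change of 0.20 (SE 0.0952, 95% interval -0.02 to 0.42, edgeR adjusted p = 0.183).

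Sesn2 was the scarcest sestrin. Its values were 8.30, 14.2 and 8.80 CPM in aged libraries and 12.4, 11.2, 14.9 and 12 CPM in young libraries. Aged replicate 2 sat among the young libraries while the other two sat below them. For Sesn2 (ENSMUSG00000028893, chr4:132492032-132510501, - strand) the log2 fold change was -0.28 (SE 0.215, 95% interval -0.77 to 0.21, edgeR adjusted p = 0.409). It was -0.56 without aged replicate 2, -0.14 without aged replicate 1 and -0.17 without aged replicate 3, and was called in none of these fits.

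Within each library, Sesn1 and Sesn3 counts, uncorrected for exon length (3982 and 15269 bases), were nearly equal in young and unequal in aged Tregs. Per kilobase of exon, Sesn1 was the higher at both ages. Its mean was 42.9 CPM per kilobase against 12.3 for Sesn3 in young libraries, and 26.3 against 14.1 in aged libraries. Sesn1 counts were 0.971, 0.952, 0.80 and 0.914 times Sesn3 counts in young libraries 1 to 4. In aged libraries 1 to 3 they were 0.39, 0.618 and 0.457 times Sesn3 counts. The groups did not overlap, and the mean log2 ratio was lower by 0.92 in aged libraries (exact permutation p = 0.0571, the smallest this design allows; 0.143 after adjustment over the 5 ratios). Leaving out 1 library at a time gave differences of -1.10 to -0.77. The ratios of Sesn2 over Sesn1 (difference 0.41) and of Sesn2 over Sesn3 (difference -0.51) overlapped between the ages, each with an exact permutation p of 0.171.

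**Figure D2:**
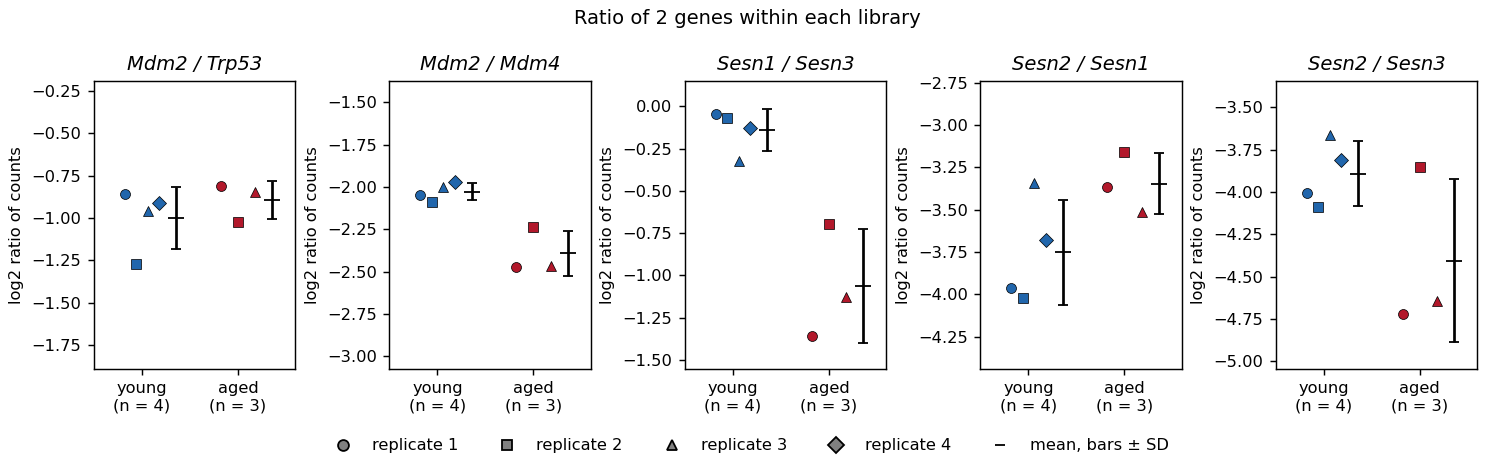
Log2 ratio of the counts of 2 genes in each library (0.5 added to each count), young libraries in blue and aged in red, with mean ± SD, all panels covering the same span. The aged libraries lie below all young libraries for Mdm2 over Mdm4 and for Sesn1 over Sesn3, and the other 3 ratios overlap.

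The other 4 targets differ in what they do. Trp53inp1 encodes a stress protein that promotes p53 activity and autophagy, Phlda3 an inhibitor of AKT, Zmat3 an RNA-binding splicing regulator and Ccng1 cyclin G1, a partner of a phosphatase. None of the 4 passed the test with all libraries (edgeR, adjusted p under 0.05). At an unadjusted p under 0.05, where 4540 of all 13904 genes lie, Trp53inp1, Phlda3 and Zmat3 passed and Ccng1 did not. DESeq2 and limma voom also called none of the 4.

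Trp53inp1 had 470, 314 and 502 CPM in aged libraries and 330, 352, 294 and 261 CPM in young libraries. Aged replicates 1 and 3 were above all young libraries, and aged replicate 2 was among them. Mean levels (± SD) were 429 ± 100.4 CPM over the 3 aged and 309 ± 40.2 CPM over the 4 young libraries. The log2 fold change of Trp53inp1 (ENSMUSG00000028211, chr4:11156431-11174379, + strand) was 0.47 (SE 0.18, 95% interval 0.06 to 0.88, edgeR adjusted p = 0.109). It was called only without aged replicate 2 among the 17 alternatives (0.65, adjusted p = 0.0277).

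Phlda3 was rare, with 28, 33 and 17 counts in aged and 17, 17, 18 and 18 counts in young libraries. On the CPM scale these were 2.45, 3.32 and 1.59 in aged and 1.49, 1.19, 1.42 and 1.29 in young libraries. The groups did not overlap, but aged replicate 3 was close to the young values. The log2 fold change of Phlda3 (ENSMUSG00000041801, chr1:135766119-135769136, + strand) was 0.86 (SE 0.3, 95% interval 0.17 to 1.55), the largest in size of the 10 genes in this fit, and with an edgeR adjusted p of 0.0854 it did not pass the threshold. Over the alternatives its adjusted p was 0.0555 to 0.287.

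Zmat3 had 20.4, 23.9 and 27.0 CPM in aged libraries and 19.9, 17.9, 20.1 and 16.4 CPM in young libraries. Aged replicate 1 was nearly level with the highest young library. For Zmat3 (ENSMUSG00000027663, chr3:32334792-32366014, - strand) the log2 fold change was 0.35 (SE 0.136, 95% interval 0.04 to 0.66, edgeR adjusted p = 0.109), and it was called only without aged replicate 1 (0.45, adjusted p = 0.0489).

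Ccng1 overlapped between the ages and varied little between libraries. It stood at 122, 120 and 112 CPM in aged and at 124, 138, 126 and 120 CPM in young libraries. Ccng1 (ENSMUSG00000020326, chr11:40748552-40755311, - strand) had a log2 fold change of -0.11 (SE 0.089, 95% interval -0.31 to 0.10, edgeR adjusted p = 0.447). The exons of the 10 genes overlap no exon of another gene in GENCODE M21, so reads shared with overlapping genes do not enter these counts by that annotation.

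**Figure D3:**
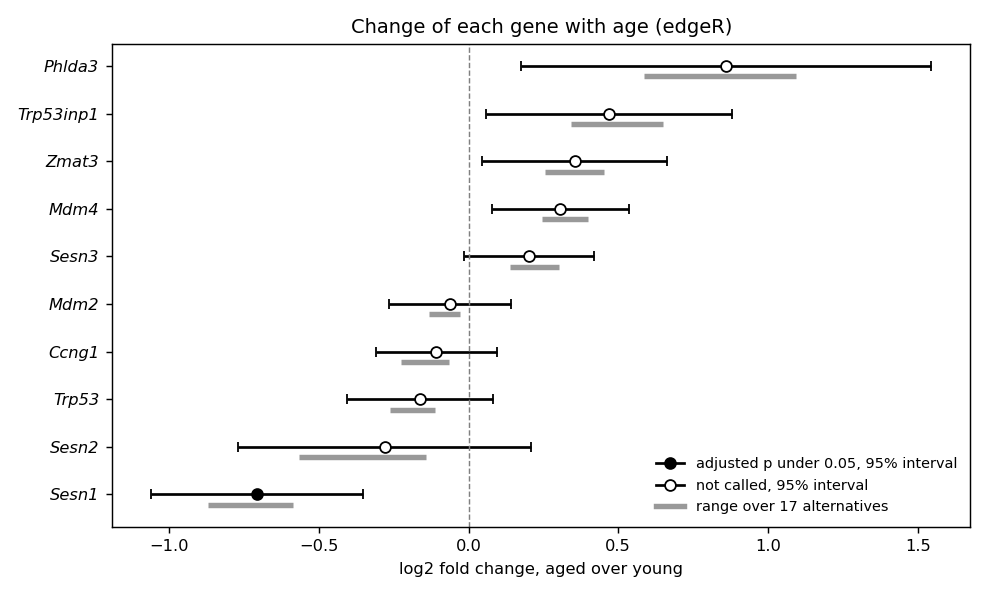
Log2 fold change (aged over young) of each gene by edgeR, with its 95% interval as a black bar and the range over 17 alternatives as a grey bar below it, the filled point marking an adjusted p under 0.05. Only Sesn1 is filled, and no grey bar crosses 0.

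Levels were compared between genes per kilobase of exon (RPKM, CPM per kilobase of merged exons, TMM scale). Trp53inp1 was highest, at 55.7 RPKM over the 7 libraries (40.4 to 77.5), followed by Trp53 at 38.1 (33.0 to 43.3), Sesn1 at 35.8 (21.6 to 48.7) and Ccng1 at 35 (31.8 to 39.2). In range, Trp53inp1 overlapped with Trp53, Trp53 with Sesn1 and Sesn1 with Ccng1. Trp53inp1 was above Trp53 in all 7 libraries, and Trp53 was above Sesn1 in 4 of 7. The place of Sesn1 differed between the ages. In young libraries its mean of 42.9 RPKM was above that of Trp53 (39.9), and in aged libraries its mean of 26.3 RPKM was below those of Trp53 (35.7), Ccng1 (33.5) and Mdm4 (27.5). Over the 7 libraries, Mdm4 followed at 24.5 RPKM (20.9 to 28.7), apart from Ccng1 above it and from Mdm2 below it. Mdm2 at 15.6 RPKM (14.3 to 16.9) and Sesn3 at 13.1 (11.1 to 14.5) overlapped in range, although Mdm2 was above Sesn3 in all 7 libraries. Sesn2 at 3.37 RPKM (2.39 to 4.30) was apart from both its neighbours, and Zmat3 at 1.82 (1.44 to 2.36) and Phlda3 at 1.17 (0.764 to 2.13) were lowest and overlapped. Per length, Sesn1 was the sestrin with the highest level in every library of both ages, at 26.3 ± 5.23 RPKM (mean ± SD) over 3 aged and 42.9 ± 5.20 RPKM over 4 young libraries.

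**Figure D4:**
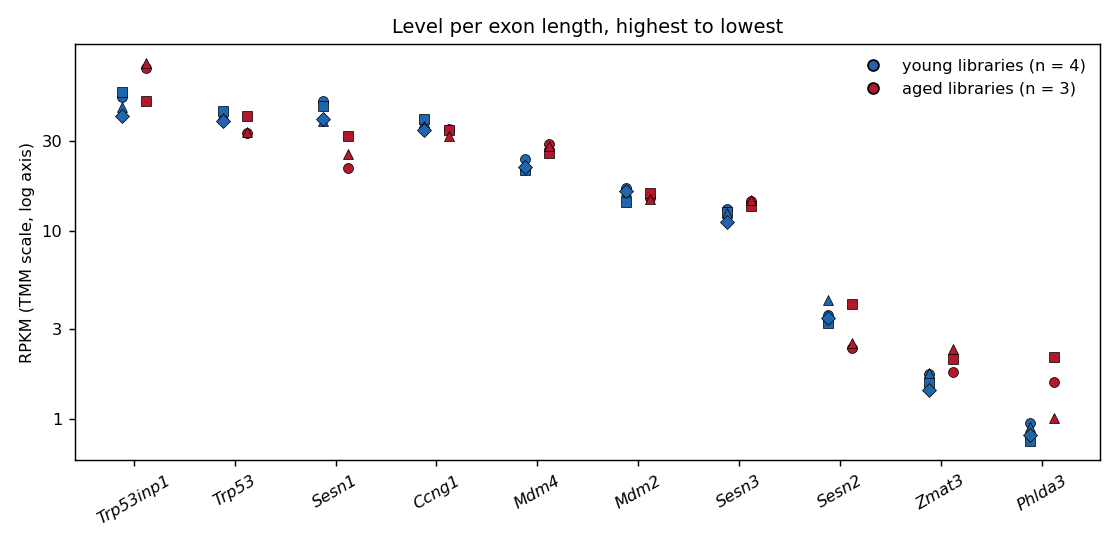
RPKM (log axis) of each gene in each library, ordered by the mean over 7 libraries, young libraries in blue and aged in red. Sesn1 is near Trp53 and Ccng1 in level, with its aged libraries (21.6 to 31.9 RPKM) below its young ones (38.1 to 48.7 RPKM), and Sesn2, Zmat3 and Phlda3 are lowest.

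Genes whose pattern over the 7 libraries was most like that of Trp53 were Rexo4, Dhdds and Bcl7b, with root mean square differences of centred log2 CPM of 0.0274, 0.0317 and 0.0362, among 9425 genes. For Phlda3, which was not called and had the largest change in size of the 10 genes in edgeR with all libraries (Sesn1 had it with library size only and without aged replicate 2), the nearest among 1495 called genes were Il9r (0.184), Slc39a13 (0.19) and Kcnk6 (0.193). Both lists describe likeness over these libraries, which share the split by age.

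The wider p53 pathway was read from 48 further genes in 5 lists, of which 43 were tested. Of these, 5 were higher and 5 lower in aged Tregs (10 called, 23.3%, beside 16.7% of all genes), with a median log2 fold change of -0.09. The count was 2 (4.65%) without aged replicate 3 or young replicate 1, 3 or 4, beside 8.9% to 9.58% of all genes in the same fits, and 5 (11.6%) without aged replicate 2 or young replicate 2, beside 12.2% and 14.5%. Among 16 upstream regulators and partners of p53, 14 were tested, 1 was higher and 1 lower. Cdkn2a, whose product ARF blocks MDM2 and whose other product is the cell cycle inhibitor p16, had 18, 13 and 22 counts in aged libraries and 3, 5, 3 and 3 counts in young libraries. All aged libraries exceeded all young ones, with a log2 fold change of 2.58 (edgeR adjusted p = 0.00278), and the call held when any 1 library was left out. Its young counts lay at or just above the limit of 3 counts, it passed the filter on low counts through its aged libraries, and it was not among the genes tested with at least 10 counts in every library. The counts do not tell its products apart. Hipk2, a kinase that phosphorylates p53, was lower (log2 fold change -0.76, edgeR adjusted p = 0.0321), but not called without aged replicate 2 or 3 or young replicate 1, 3 or 4 (adjusted p 0.0628 to 0.112). Neither Usp7, which removes ubiquitin from MDM2 and p53, nor the coactivator Ep300 was called (-0.07 and -0.53, edgeR adjusted p = 0.781 and 0.0659). Ep300 was lower in every aged library. Of the 17 alternatives, 3 called it: library-size scaling, DESeq2 and the fit without a filter (adjusted p 0.0166 to 0.0493).

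Of 32 other p53 targets in 4 lists, 29 were tested, 4 were higher and 4 lower (27.6% called, beside 16.7% of all genes, with 9.8% of all genes higher and 6.94% lower). In the arrest list, 2 of 8 tested genes were higher and 1 was lower. Plk3, a stress kinase, had 49.0, 41.1 and 42.4 CPM in aged libraries and 16.5, 15.9, 14.5 and 15.5 CPM in young libraries. Its aged values were all far above its young values, with a log2 fold change of 1.5 (SE 0.109, edgeR adjusted p = 0.00033), and it was called in all 17 alternatives. Cdkn1a, which encodes the cell cycle inhibitor p21, had 6.29, 4.93 and 5.71 CPM in aged and 3.06, 3.71, 3.47 and 3.37 CPM in young libraries (log2 fold change 0.73, edgeR adjusted p = 0.0317). Plk2, a related kinase, was lower (-1.32, edgeR adjusted p = 0.0379). The call of Cdkn1a was lost without aged replicate 1 or 3 or young replicate 1, 3 or 4 (adjusted p 0.0625 to 0.0817), and that of Plk2 was lost when any library except aged replicate 1 was left out (0.057 to 0.125). Neither Btg2, an antiproliferative gene, nor Gadd45a, a DNA damage gene, was called (-0.14 and 0.18), and Gadd45a changed sign without aged replicate 2 or young replicate 2 (-0.42 and -0.12).

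In the death list, 11 of 12 genes were tested, 1 was higher and 1 lower. Pmaip1, which encodes the BH3-only protein NOXA, was higher (28.1 ± 4.64 against 18.7 ± 2.40 CPM, SD, n = 3 and 4; log2 fold change 0.59, edgeR adjusted p = 0.0346). Bbc3, which encodes the related protein PUMA, was lower (9.12 ± 1.70 against 13.4 ± 0.952 CPM, SD, n = 3 and 4; log2 fold change -0.56, edgeR adjusted p = 0.0472). With 1 library left out, the call of Pmaip1 held for aged replicate 1 and was lost for each of the others (0.0526 to 0.119), and that of Bbc3 held for aged replicate 2 and was lost for each of the others (0.0787 to 0.144). Bax, the pore-forming effector, and Apaf1, the core of the apoptosome, were not called (0.04 and -0.09), and Apaf1 changed sign without aged replicate 2 (0.04), as did Bax when scaled by library size alone (-0.03). In the list of repair and nucleotide supply, 1 of 5 genes was called, Rrm2b, a ribonucleotide reductase subunit, which was lower (-0.43, edgeR adjusted p = 0.0358; not called when any library except aged replicate 1 was left out, 0.0541 to 0.0899). The repair genes Ddb2 and Xpc were not called (0.24 and -0.22).

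In the list of metabolism and stress, 5 of 6 genes were tested, 1 was higher and 1 lower. Ddit4, which encodes the mTORC1 inhibitor REDD1, had 48.0, 99.1 and 37.0 CPM in aged libraries and 142, 136, 131 and 151 CPM in young libraries. All aged libraries were below the young ones, with aged replicate 2 nearest, and the log2 fold change was -1.19 (edgeR adjusted p = 0.0301). The call was lost without aged replicate 1 or 3 or young replicate 1, 3 or 4 (adjusted p 0.0649 to 0.077). Rap2b, a small GTPase, was higher (0.42, edgeR adjusted p = 0.0397), and the call was lost when any library except aged replicate 1 was left out (0.0593 to 0.107). Other settings also ended calls among these targets. Scaling by library size only did so for Cdkn1a, Pmaip1, Rrm2b and Rap2b, removal of GC and length trends for Cdkn1a, Pmaip1 and Bbc3, and the fit without a filter for Cdkn1a, Bbc3 and Rap2b. The filter of 10 counts in each library ended the call of Bbc3, DESeq2 that of Rap2b and thinning that of Rrm2b. Ephx1, an epoxide hydrolase, and Fdxr, a ferredoxin reductase, were not called (-0.16 and 0.10), and Fdxr was at -0.01 without aged replicate 2.

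Among 12 genes upstream of mTORC1 (subunits of the GATOR complexes and AMPK, and the arginine sensors Castor1 and Castor2), 11 were tested, 1 was higher and 1 lower (18.2% called, beside 16.7% of all genes, median -0.03). Wdr59, a GATOR2 subunit, had 19.5, 18.0 and 16.8 CPM in aged and 33.6, 31.6, 32.1 and 27.6 CPM in young libraries. The groups were apart by more than their spread (log2 fold change -0.79, SE 0.117, edgeR adjusted p = 0.00405), and the call held when any 1 library was left out. Nprl3, a GATOR1 subunit, was higher (0.56, edgeR adjusted p = 0.0448), but was called only without aged replicate 1 among the fits that left out 1 library (0.0649 to 0.134 without each of the others) and was not called when scaled by library size only. The GATOR2 subunits Sec13 and Seh1l were not called (-0.03 and -0.18), and Sec13 was at 0.04 without aged replicate 2 and at 0.0007 without young replicate 2.

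Among 9 FoxO genes and genes that FoxO1 holds up in quiescent T cells, all were tested, 4 were lower and none was higher (44.4%, beside 6.94% of all genes in the lower direction; median -0.34). Of the FoxO targets among the 10 genes, Sesn1 was also lower and Sesn3 was not. Foxo1 had 191, 167 and 179 CPM in aged and 275, 229, 255 and 287 CPM in young libraries (log2 fold change -0.55, edgeR adjusted p = 0.014; 0.0543 without aged replicate 3). Its aged values were all below its young values. The others that fell were Klf2, a quiescence factor (-1.15, edgeR adjusted p = 0.0123; 0.0516 without aged replicate 3), the exit receptor S1pr1 (-0.81, edgeR adjusted p = 0.00513) and the chemokine receptor Ccr7 (-0.77, edgeR adjusted p = 0.0213; 0.0516 to 0.0793 without aged replicate 2 or 3 or young replicate 1). Il7r and Cdkn1b were not called (0.25 and 0.13) and changed sign without 1 library, Il7r at -0.02 without aged replicate 1 and Cdkn1b at -0.07 without aged replicate 2. Without aged replicate 3, S1pr1 was the only gene of the FoxO list called, beside 8.9% of all genes in either direction. Among 10 ATF4 stress genes, 9 were tested and 1 was called, Slc7a11, the cystine transporter, which was higher. That is 11.1%, beside 16.7% of all genes in either direction and 9.8% in the higher direction (list median 0.42). Slc7a11 had 21, 22 and 23 counts in aged and 9, 11, 10 and 9 counts in young libraries (1.45, edgeR adjusted p = 0.0083). It passed the filter on low counts through its aged libraries, and it was not tested with at least 10 counts in every library. Atf4 itself and Slc3a2 were not called with all libraries (0.42 and 0.57, edgeR adjusted p = 0.0939 and 0.11), and both were without aged replicate 1 (0.54 and 0.74, adjusted p = 0.0307 and 0.0404). Without aged replicate 2 they stood at 0.28 and 0.21 (adjusted p = 0.259 and 0.275).

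**Figure D5:**
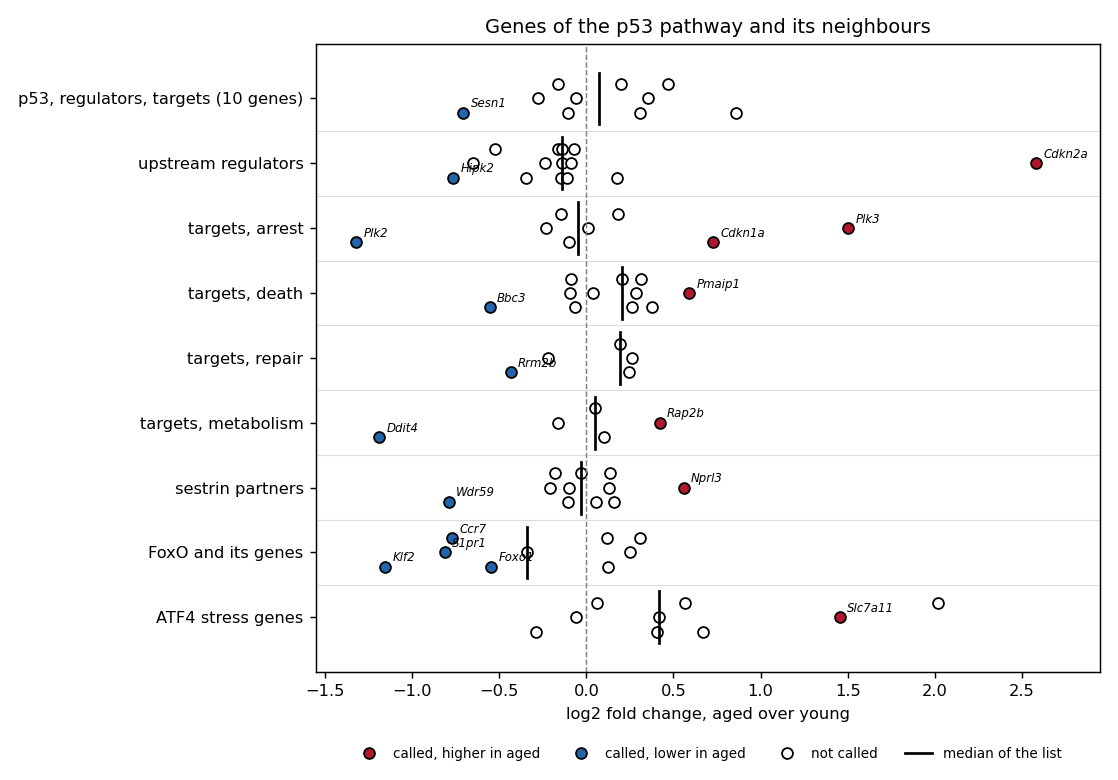
Log2 fold change (aged over young, edgeR) of every tested gene of the 10 and of 8 lists of pathway genes, 1 point per gene, red for higher and blue for lower in aged Tregs at an adjusted p under 0.05, open for not called, with a bar at each list's median. Calls go both ways in 5 of the 8 lists, the repair list holds 1 that is lower, the FoxO list holds 4 calls that are all lower, and the ATF4 list holds 1 that is higher.

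Markers of T cell states moved with age beside Sesn1. For comparison, 9.8% of all genes tested were higher and 6.94% lower. Of 6 naive T cell markers, 5 were lower in aged Tregs and none was higher, none was at 0, and their summed level was 1050 to 1384 CPM in aged and 1370 to 1855 CPM in young libraries. This list shares 4 genes with the FoxO list. With 1 library left out, Lef1 and S1pr1 were called in 7 of 7 fits, Klf2 in 6, Ccr7 in 4 and Tcf7 in 2. Of 7 effector memory T cell markers, 4 were higher, with summed levels of 643 to 741 CPM in aged and 449 to 554 CPM in young libraries. Among 8 neutrophil markers, 3 were higher. The 8 summed to 5282, 1885 and 670 CPM in aged libraries 1 to 3, and to 291 to 970 CPM in young libraries. With 1 library left out, S100a8 was called in 2 of 7 fits, S100a9 in 4 and Retnlg in 5. The log2 fold change of S100a8 was 2.25 with all libraries and 1.29 to 2.76 in those fits, and limma voom called 2 of the 8 markers. Among 9 macrophage markers, 3 were lower (410 to 559 CPM in aged, 523 to 615 CPM in young). Of 5 dendritic cell markers, Zbtb46 was higher and Siglech lower, of 6 plasma cell markers Prdm1 was higher, and of 5 general T cell markers Cd3e was higher. With 1 library left out, Siglech was called in 7 of 7 fits, Zbtb46 in 6, and Prdm1 and Cd3e in 2 each. Of 8 B cell markers edgeR called 0 (946 to 1861 and 1417 to 2183 CPM; 3 at an unadjusted p under 0.05, 3 by DESeq2 and 1 by limma voom), and of 6 Treg markers it called 0 (4 at an unadjusted p under 0.05, 1 by DESeq2 and 1 by limma voom). Neither the 7 erythroid nor the 6 cell cycle markers held a call, by edgeR, DESeq2 or limma voom, nor an unadjusted p under 0.05. The part of these shifts in the change of Sesn1 was not tested.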

How the data were processed

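Per the labels, cDNA of each library was made with a SMART-Seq v4 kit from splenic CD4+CD25+ cells. The authors deposited read counts per Ensembl gene, in the layout of HTSeq-count without strand; the build is mm10 per the submitters' processing notes, and the aligner is not given in the sources used here. Lines for reads on no or several genes (13.1% to 20.9%) were left out. The authors also deposited a table of signal values, each a count divided by a size factor, which was used for gene symbols and a check only; its columns of fold changes and p-values were not used. Aged and young counts were compared with edgeR 4.0.16 (R 4.3.3; TMM, filterByExpr, quasi-likelihood test, no covariate) over 13904 genes, with Benjamini-Hochberg adjustment and a threshold of 0.05. Ratios (0.5 added) were compared by exact two-sided permutation tests. The 17 alternatives were RLE or library-size scaling, DESeq2 1.42.0, limma voom (3.58.1), no filter or a filter of 10 counts in each library, exclusion of mitochondrial, immunoglobulin and haemoglobin genes, a block by replicate number, omission of each library in turn, thinning, and removal of GC and length trends (99.7% of genes had both). Named pathway genes are the called genes of each list and up to 2 uncalled genes of highest level; likeness was taken among genes whose mean log2 CPM was at least 3. The members and lists were chosen with earlier results of these data known. A gene of the FoxO and naive T cell lists is not reported here and was left out of their counts. Coordinates and exons are from GENCODE M21, matched by identifier.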

Additional observations from a re-analysis of the deposited data

Results flagged for a closer look

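Each named gene and ratio was examined for 1 young library far from the other 3, in 51 groups of 4 libraries. Such a rule picks out about 1 group in 20 by chance, and it picked out 3, none of them in the 10 genes. For Plk2, young replicate 2 had 25.1 CPM and the next highest 14.4 CPM, a gap of 0.841 of the group's range. For Pmaip1, young replicate 3 had 15.1 CPM and the next lowest 19.5 CPM (0.869 of the range). For Slc7a11, young replicate 4 had 0.645 CPM and the next lowest 0.771 CPM (0.869 of the range), where 3 counts correspond to 0.215 CPM in that library.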

How the results depend on the processing

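All 10 genes kept their direction under the 17 alternatives (170 values, 0 reversed). In 162 the side of the threshold was kept, in 3 the Sesn1 call was lost and in 5 a call was gained. The count of called genes among the 10 was 1 in edgeR with all libraries, 2 with DESeq2, 2 with limma voom, 2 with GC and length trends removed, and 0 to 2 without 1 library. Over all genes, 2327 were called, and 1237 to 3058 without 1 library. Of the other p53 pathway genes 10 were called, and 2 to 9 without 1 library. With the replicate number as a block, 292 genes were called, 0 of the 10 (Sesn1 -0.76, adjusted p = 0.0917) and 1 of the other pathway genes. Libraries with the same number were not positively correlated in their deviations (r = -0.18, -0.45 and -0.15). Those with different numbers ranged from -0.39 to 0.43. That gives no sign of pairing by number, but deviations from a mean of 3 or 4 libraries offset each other, so pairing is not excluded. The share of calls that were higher was 58.5%, 51.1% with GC and length trends removed and 69.2% with the block. Without 1 library, the named uncalled genes whose sign turned ranged from -0.42 to 0.53 (Gadd45a), from -0.191 to 0.0449 (Apaf1), from -0.0138 to 0.23 (Fdxr), from -0.101 to 0.04 (Sec13, at 0.0007 without young replicate 2), from -0.0211 to 0.446 (Il7r) and from -0.0661 to 0.286 (Cdkn1b). Gadd45a was at -0.12 without young replicate 2, and Bax at -0.0304 with library size only. The cause of these changes was not tested. Depth limits Cdkn2a, Slc7a11 and Phlda3, with 3 to 22, 9 to 23 and 17 to 33 counts per library.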
